A study of Homo sapiens with 5 samples.

Results

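The 2 CUT&Tag libraries compared here profiled Flag-tagged ENL in HepG2, a human liver cancer line, as the wild type protein and as the Y78A variant, in which a tyrosine is replaced by alanine. The members are the 16816 peaks of these lists on the 24 standard chromosomes, of 61337 peaks in the series: 11394 in the wild type list and 5422 in the Y78A list. The cells stably expressed the tagged protein and the antibody was against Flag. The sources used here do not give the promoter, the amount of each protein made, whether endogenous ENL was still present, or whether a line was 1 clone. There was 1 library a group, so no difference has a replicate check and none was tested. All intervals are at 95%. Those of shares and of single fragment ratios cover counting error alone, those of medians cover the spread over sites, and neither covers the spread between libraries. PCR copies cannot be told from separate molecules here. H3K9ac, H3K9bhb and H3K9cr (acetylation, β-hydroxybutyrylation and crotonylation of lysine 9 of histone H3) have 1 list each and serve only as positions.

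ENL, encoded by MLLT1, joins elongation complexes that release and speed RNA polymerase II. Its YEATS domain folds an aromatic cage around an acylated lysine of a histone tail, and Tyr78 is part of that cage. Exchanging this tyrosine for alanine is a common way to weaken acyl-lysine binding while leaving the rest of the protein, including the parts that bind partner proteins, in place. CUT&Tag places a transposase at antibody-bound chromatin, and a peak is an interval where more tagged fragments ended up than the caller's local background.

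Peaks were divided by an overlap of at least 1 bp into shared sites, wild-type-only sites and Y78A-only sites. To show the DNA behind these classes, 6 promoters are printed, taken from RefSeq on GRCh38.p14 (the assembly also named hg38). The first 3 belong to genes whose strong wild type peak had no Y78A counterpart. They are ANKRD1 (chr10:90921038-90921337, minus strand), which encodes a muscle and YAP-responsive ankyrin protein, ICE1 (chr5:5422427-5422726, plus strand), which encodes a scaffold of the little elongation complex, and AKR1C1 (chr10:4963165-4963464, plus strand), which encodes a steroid-reducing enzyme. The last 3 lie under strong shared peaks. They are SPATC1L (chr21:46184410-46184709, minus strand), COQ10B (chr2:197453302-197453601, plus strand), which encodes a coenzyme Q binding protein, and ARL6IP1 (chr16:18801321-18801620, minus strand), which encodes a membrane-shaping protein of the endoplasmic reticulum. Each runs from 250 bases before to 50 after the start site, 5′ to 3′ in gene direction, and capitals mark exact matches on either strand to the short motifs described further on.
ANKRD1: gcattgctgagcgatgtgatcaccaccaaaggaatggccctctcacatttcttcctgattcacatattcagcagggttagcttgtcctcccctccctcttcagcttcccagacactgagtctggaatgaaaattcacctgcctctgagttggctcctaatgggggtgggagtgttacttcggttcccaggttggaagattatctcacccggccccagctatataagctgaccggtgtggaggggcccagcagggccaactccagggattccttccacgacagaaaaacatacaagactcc
ICE1: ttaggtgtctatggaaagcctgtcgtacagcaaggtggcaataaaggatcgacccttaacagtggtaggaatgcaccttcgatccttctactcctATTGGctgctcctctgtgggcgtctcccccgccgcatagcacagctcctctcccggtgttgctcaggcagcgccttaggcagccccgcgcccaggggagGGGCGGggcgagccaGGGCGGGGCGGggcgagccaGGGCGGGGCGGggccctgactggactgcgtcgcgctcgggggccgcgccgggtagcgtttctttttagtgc
AKR1C1: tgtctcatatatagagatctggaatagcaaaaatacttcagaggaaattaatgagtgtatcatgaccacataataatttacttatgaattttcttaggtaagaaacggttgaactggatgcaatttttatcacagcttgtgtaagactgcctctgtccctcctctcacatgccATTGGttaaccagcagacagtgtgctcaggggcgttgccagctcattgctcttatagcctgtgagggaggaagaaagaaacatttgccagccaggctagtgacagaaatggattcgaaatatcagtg
SPATC1L: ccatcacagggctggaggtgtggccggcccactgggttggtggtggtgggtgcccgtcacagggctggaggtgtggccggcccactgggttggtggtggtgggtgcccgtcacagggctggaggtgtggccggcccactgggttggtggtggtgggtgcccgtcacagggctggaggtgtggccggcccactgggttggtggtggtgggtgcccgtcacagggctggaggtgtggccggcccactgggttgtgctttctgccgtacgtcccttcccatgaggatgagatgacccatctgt
COQ10B: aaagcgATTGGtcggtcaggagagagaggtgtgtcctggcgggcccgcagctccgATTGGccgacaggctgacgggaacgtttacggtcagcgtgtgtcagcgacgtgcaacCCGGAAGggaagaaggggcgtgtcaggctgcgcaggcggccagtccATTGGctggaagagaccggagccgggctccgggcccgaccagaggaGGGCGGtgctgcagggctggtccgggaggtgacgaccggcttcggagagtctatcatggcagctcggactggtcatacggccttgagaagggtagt
ARL6IP1: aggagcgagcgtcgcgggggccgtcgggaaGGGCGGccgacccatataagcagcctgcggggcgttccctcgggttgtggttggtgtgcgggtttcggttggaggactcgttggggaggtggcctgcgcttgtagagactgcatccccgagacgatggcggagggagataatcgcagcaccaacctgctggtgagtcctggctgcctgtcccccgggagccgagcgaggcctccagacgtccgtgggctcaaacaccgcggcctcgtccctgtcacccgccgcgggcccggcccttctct
ICE1 held 6 motif matches, 5 of them to the SP motif GGGCGG and 1 to the CCAAT box. COQ10B held 5, of which 3 were CCAAT boxes. AKR1C1 and ARL6IP1 held 1 each, and ANKRD1 and SPATC1L held none. The SPATC1L window is a tandem repeat: it matched itself at 86.2% of bases when moved by 53 bases, while the best such match in the other printed windows was 36.7%, in ICE1.

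The Y78A list held fewer peaks than the wild type list, and most of them overlapped a wild type peak. Of the wild type peaks, 4892 were shared (42.9%, interval 42.0 to 43.8) and 6502 were wild type only. Of the Y78A peaks, 4952 met a wild type peak and 470 did not (8.67%, interval 7.95 to 9.45). The match was close to 1 peak for 1 peak. Of the shared wild type peaks, 4815 met a single Y78A peak, 76 met 2 and 1 met 3, and 18 Y78A peaks bridged 2 wild type peaks. The shares depend on list length: with the wild type list cut to its strongest peaks, as many as in the Y78A list, 72.0% of wild type and 73.2% of Y78A peaks were shared. Few peaks lay near the limit of the rule. The smallest overlap among 4875 best-matched pairs was 4 bp, 17 pairs overlapped by less than 50 bp, and 49 wild-type-only peaks lay within 200 bp of a Y78A peak. Among wild-type-only peaks, 4.68% had a Y78A peak within 1000 bp, and the median distance to one was 80.5 kb.

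The wild-type-only sites were the weaker wild type peaks. The deposited fold and −log10 p of a peak together fix a whole number of fragments at its summit and a local background, and both were recovered for all but 1 peak of each list. Shared wild type peaks had a median of 32 summit fragments (quartiles 24 and 45) over a background of 4.72, and a width of 513 bp. Wild-type-only peaks had 19 fragments (15 and 25) over 3.03, and a width of 314 bp. Y78A-only peaks had 15 fragments (12 and 18) over 1.98 and a width of 237 bp, against 22 fragments over 3.12 and 352 bp for shared Y78A peaks. The classes overlapped in strength: 742 wild-type-only peaks (11.4%) had at least as many fragments as the median shared peak.

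The share of wild type peaks with a Y78A peak climbed across the whole range of summit fragments. It was 6.68% (interval 5.13 to 8.66) at 8 to 12 fragments, 37.8% (35.6 to 39.9) at 21 to 25, 68.6% (66.4 to 70.8) at 31 to 40 and 89.4% (86.8 to 91.5) at 61 to 290. Sites far from genes departed from this line at the weak end. With 17 to 20 fragments, 48.6% of the wild type peaks over 100 kb from a protein-coding gene were shared (interval 40.6 to 56.7), against 23.8% of those at gene ends (interval 21.04 to 26.8). At 61 or more fragments the same shares were 89.6% (interval 84.03 to 93.4) and 92.8% (interval 88.6 to 95.5). A gene-end peak here has its summit within 1 kb of either end of a protein-coding gene, so it can be a start or a 3′ end.

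**Figure D1:**
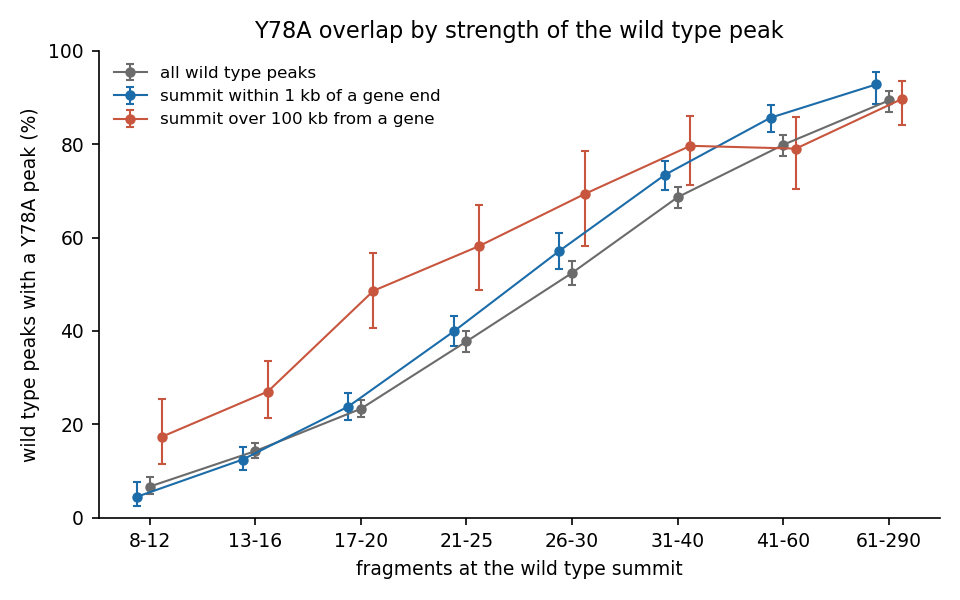
Percent of wild type ENL peaks overlapped by a Y78A peak (vertical axis) by the number of fragments at the wild type summit (horizontal axis), for all wild type peaks, those at gene ends and those over 100 kb from a gene, with 95% Wilson intervals. The share goes from 6.68% to 89.4% over all peaks, and far sites lie above gene ends among weak peaks.

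Strong wild type peaks without a Y78A peak were few, and their local background was high. Only 73 wild-type-only peaks had more than 60 fragments. Their median background was 30.04 fragments and their median fold 2.32, against a background of 17.2 and a fold of 4.38 at the 613 shared peaks of that height. Of the 73, 16 lay at a gene end, 17 in a gene body and 17 over 100 kb from a gene. The strongest wild-type-only peak by −log10 p was at UBB, which encodes polyubiquitin as a chain of repeated ubiquitin units (hg38 chr17:16382097-16382639). It held 62 fragments over a background of 8.30, had its summit 1078 bp downstream of the start site, and met no H3K9ac, H3K9bhb or H3K9cr peak. Reads from repeated units and near-identical gene copies can be hard to place, and the sources used here do not say how such reads were treated, so this value is uncertain. The same holds for AKR1C1, a member of a family of similar genes, with 61 fragments over 11.8.

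The other leading wild-type-only gene-end peaks met H3K9ac and H3K9bhb. ANKRD1 had 39 fragments over 3.62 (chr10:90921047-90921572), with its summit 197 bp upstream of the start site, and met peaks of all 3 marks, as did ICE1 with 32 over 2.60. IFT88, needed for building cilia, had 33 fragments over 3.04 (chr13:20566708-20567204) and F5, coagulation factor V, 33 over 3.16. FNTA, a farnesyltransferase subunit, had 36 over 2.70, CCNB1, cyclin B1, 30 over 2.58, and the peak between LARP7 and ZGRF1 29 over 2.27. Each of these 5 peaks met H3K9ac and H3K9bhb and no H3K9cr peak. A peak at the ends of DONSON and SON, 33872 bp from the nearest known start site, had 37 over 2.75 and met all 3 marks, while both genes carried a Y78A peak at another place.

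At shared sites the Y78A peak was lower and narrower, and centred on the same place. Wild type summits held more fragments in 4426 of 4875 pairs (90.8%), Y78A summits in 346, and 103 were equal. The median ratio of wild type to Y78A fragments was 1.45 (interval of the median over sites 1.44 to 1.46, quartiles 1.23 and 1.69). Local backgrounds differed by slightly more, with a median ratio of 1.49 (interval 1.48 to 1.50). The deposited fold adds 1 to both the count and the background, and the ratio of these folds had a median of 1.04. The most frequent background of each list was 1.29 fragments in wild type and 1.09 in Y78A, a ratio of 1.19. The sources used here hold no read totals, so less bound protein and fewer reads cannot be told apart as the source of a lower summit. Across the pairs, Pearson's r of log2 fragments was 0.88 and Spearman's rho 0.85, as a description of sites within 2 libraries.

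The gap between the proteins differed by place. At the 2270 shared gene-end sites the median ratio was 1.53 (interval 1.50 to 1.54), and wild type was higher at 96.9% of them. In gene bodies it was 1.45, at 1 to 10 kb from a gene 1.50 and at 10 to 100 kb 1.398. At the 575 sites over 100 kb from any protein-coding gene it was 1.08 (interval 1.06 to 1.12), below the ratio of the most frequent backgrounds, and wild type was higher at 62.8%. Backgrounds followed the same order, 1.53 at gene ends and 1.12 over 100 kb. The difference was present at each strength. With the wild type list cut by −log10 p into 4 groups of like size, from weakest to strongest, gene ends gave 1.13, 1.29, 1.47 and 1.63, and far sites 0.94, 1.00, 1.11 and 1.11. These ratios exist only where Y78A had a peak, which keeps sites of large ratio out of the weak groups. The sequence of the far sites was not read here, and how reads from repeats were treated is not given. The ratios at far sites are therefore uncertain. Far sites that met an H3K9ac peak and those that did not both had a median of 1.08. Far sites on H3K9cr had 1.06 (interval 1.03 to 1.09) and those off it 1.17 (interval 1.11 to 1.26).

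**Figure D2:**
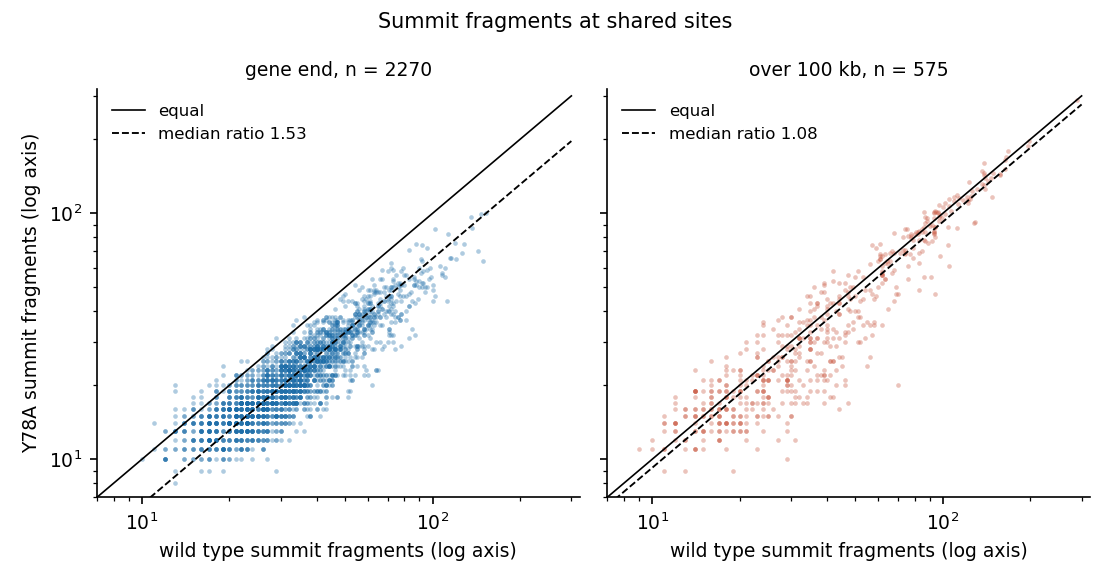
Summit fragments in the wild type list (horizontal, log axis) and the Y78A list (vertical, log axis) at shared sites, with 1 point a site, at gene ends on the left and over 100 kb from a gene on the right. The solid line marks equal numbers and the dashed line the median ratio, 1.53 on the left and 1.08 on the right.

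The Y78A peak was narrower in 84.5% of pairs, and its median width was 0.75 of the wild type width (interval 0.74 to 0.76). The ratio was 0.70 at gene ends, where the median width went from 576 to 382 bp, and 0.94 over 100 kb, where it went from 363 to 309 bp. The median Y78A peak lay wholly inside the wild type peak and covered 71.1% of it. Summits were a median of 52 bp apart (quartiles 18 and 113), and 83.4% of pairs had them within 150 bp (interval 82.3 to 84.4). Around start sites the lost width came from both flanks. At 1999 shared start-site pairs wild type reached a median of 71 bp further upstream (interval 65 to 75) and 87 bp further downstream (interval 81 to 94). The Y78A summit had a median displacement of 0 bp in gene direction (interval -2 to 2).

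The strongest shared peaks that overlap a window of 1 kb around a gene end give the sizes behind these medians. LOC124905351, at the end of chromosome 3, had 135 wild type and 97 Y78A fragments. RBM39, a splicing coactivator, had 147 and 99, and HNRNPA3, an RNA-binding protein, 110 and 60, a ratio of 1.83 (exact interval 1.33 to 2.55). COQ10B had 99 and 55, ARL6IP1 77 and 46, and KAT6B, a histone acetyltransferase whose wild type summit lies 1378 bp from a gene end, 89 and 63. FAM86B1, 1 of a family of similar copies, had 93 and 58. SPATC1L, whose tandem repeat is printed above, had 67 and 59, a ratio of 1.14 with an interval of 0.79 to 1.64. As at UBB, reads from repeats and similar copies can be hard to place, so the values at SPATC1L and FAM86B1 are uncertain. The sequence at LOC124905351 was not read here, so its values are uncertain too. These 8 were chosen for their wild type −log10 p, which favours a ratio above 1, so they are a description only.

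Among 1657 gene-end pairs with a −log10 q of at least 10 in either list, the extremes of the ratio were looked up, so the sizes here are a description. TMEM30A, a flippase subunit, had 29 wild type fragments and 9 Y78A fragments, a ratio of 3.22 (exact interval 1.49 to 7.74). GPX2, a glutathione peroxidase of the gut and liver tumours, had 62 and 20 (3.10, interval 1.85 to 5.42), and SRSF3, a splicing factor, 65 and 23 (2.83, interval 1.73 to 4.77). The shared promoter region of MYL12A and MYOM1 had 51 and 18, and STK17A, a kinase of cell death, 64 and 23. At the other extreme Y78A was higher, but by few fragments. DCAF13 and SLC25A32 had 13 wild type and 20 Y78A fragments, TNNI2 had 25 and 32, FKBP3 19 and 24, CCDC82 and JRKL 13 and 16, and KLHL28 and TOGARAM1 16 and 19. The exact interval of the ratio included 1 at each of these 5 pairs.

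Shared and unshared peaks lay in different places. Gene ends held 46.6% of shared wild type peaks (interval 45.2 to 48.0) and 40.3% of wild-type-only peaks (interval 39.1 to 41.5). The difference was 6.26 percentage points (Newcombe interval 4.42 to 8.10). It went with strength: within the 4 strength groups it was -2.87, 1.21, 2.60 and 1.67 points, each with an interval that included 0. With peaks required to cover 50% of each other it was 1.44 points. Gene bodies held 23.6% of shared and 30.98% of wild-type-only peaks. Sites over 100 kb from a gene made up 11.8% of shared (interval 10.96 to 12.8) and 6.81% of wild-type-only peaks (interval 6.23 to 7.45). In the strongest group, 94.0% of far wild type peaks were shared (interval 91.02 to 95.98), against 88.7% at gene ends (interval 86.9 to 90.2).

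Y78A-only peaks had a layout of their own. Only 19.1% were at gene ends (interval 15.8 to 22.95) and 32.1% were over 100 kb from a gene (interval 28.1 to 36.5). The 151 far ones had a median distance of 1047 kb to the nearest protein-coding gene, and 122 were beyond 300 kb. The strongest were on chromosome 17 (chr17:24421377-24421615 and chr17:26494555-26494819), each with 21 fragments over a background of 1.09. The sequence under the far peaks was not read here. Whether they lie in repeats, where reads can be hard to place, was not tested, so their values are uncertain. Among the 10 strongest Y78A-only peaks, 8 were over 100 kb from a gene, 1 lay 15.7 kb from an end of IRS1 and 1 inside PTPRN2, and none was at a gene end. A wild type peak lay within 1000 bp of 14.04% of Y78A-only peaks and within 5 kb of 25.3%. The PTPRN2 peak was 270 bp from one, and the strongest Y78A-only peak of chromosome 10 was 512 bp from one.

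**Figure D3:**
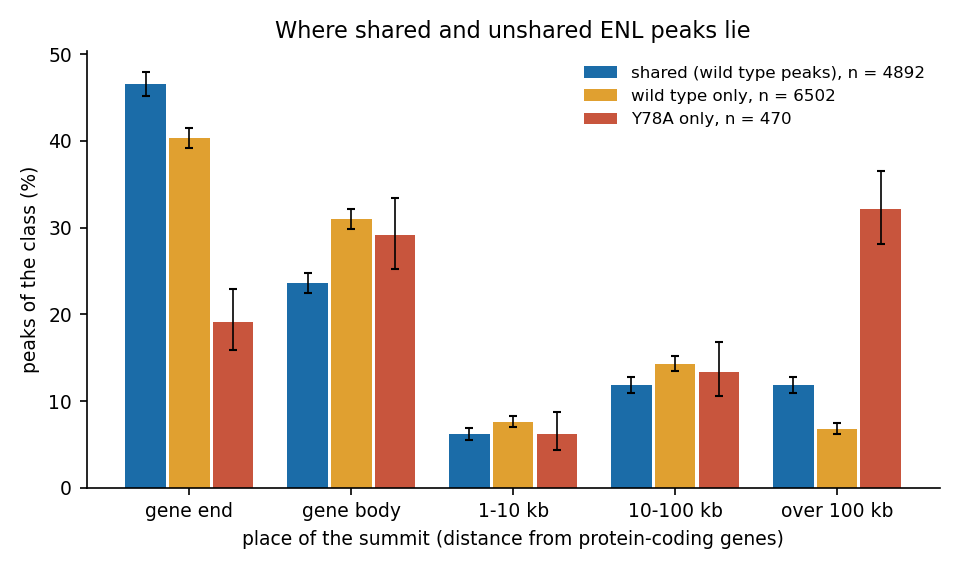
Percent of each class of peaks (vertical axis) by place of the summit relative to protein-coding genes (horizontal axis), for shared wild type peaks, wild-type-only peaks and Y78A-only peaks, with 95% Wilson intervals. Gene ends hold 46.6%, 40.3% and 19.1% of the classes, and sites over 100 kb from a gene 11.8%, 6.81% and 32.1%.

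The side of the start site also differed between the classes. A start site was known for 15843 of 20037 protein-coding genes. Among peaks with the summit within 1 kb of one, shared wild type summits had a median position 115 bp upstream, written -115 (interval -124 to -106), and wild-type-only summits -45 (interval -54 to -33). Summits lay downstream of the start site in 30.3% of the 2004 shared peaks (interval 28.3 to 32.3) and 41.9% of the 2196 wild-type-only peaks (interval 39.8 to 44.0). The fullest 50 bp bin of the shared peaks was -200 to -150 with 14.4% of them, and that of wild-type-only peaks -150 to -100 with 10.7%. Strength moved with this too. From the weakest to the strongest group, shared peaks were downstream in 50.6%, 34.5%, 35.5% and 25.1% of cases, and wild-type-only peaks in 46.9%, 41.5%, 37.0% and 31.9%. The intervals of the classes overlapped in every group. The 81 Y78A-only peaks near a start site were downstream in 46.9% (interval 36.4 to 57.7).

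**Figure D4:**
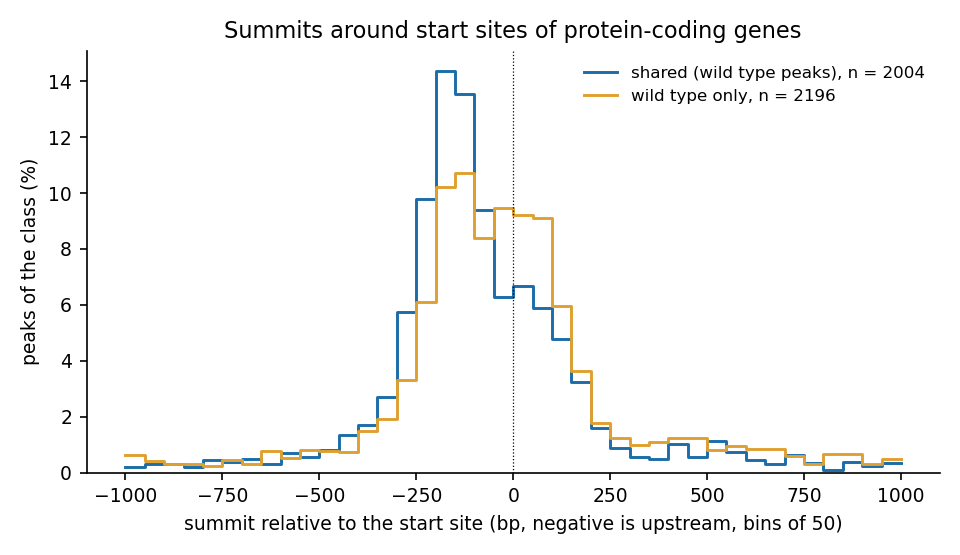
Percent of peaks of a class (vertical axis) by the distance of the summit from the nearest start site in bins of 50 bp (horizontal axis, negative is upstream), for shared wild type peaks and wild-type-only peaks. Shared summits gather upstream, at a median of -115 bp, and wild-type-only summits spread across the start site, at a median of -45 bp.

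The marks separated the classes more than position did. H3K9bhb met 83.6% of shared wild type peaks (interval 82.6 to 84.7) and 41.8% of wild-type-only peaks (interval 40.6 to 43.02), a difference of 41.8 points (interval 40.2 to 43.4). The difference was 26.97, 25.02, 24.0 and 19.1 points from the weakest to the strongest group, and every interval excluded 0. H3K9ac differed by 17.7 points and H3K9cr by 22.9 points. Of wild-type-only peaks 20.5% met none of the marks, against 3.802% of shared peaks, and 5.43% and 29.2% met all 3. Y78A-only peaks met H3K9bhb in 35.7% of cases (interval 31.5 to 40.2), H3K9ac in 57.9% and H3K9cr in 26.6%. The lists differ in length and threshold, so shares for different marks are not compared.

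Place changed which marks were met. At gene ends H3K9ac met 96.5% of shared and 92.9% of wild-type-only peaks, while H3K9bhb met 87.6% and 49.1%, and H3K9cr 23.3% and 4.65%. Over 100 kb from a gene H3K9cr met 64.2% of shared peaks (interval 60.3 to 68.0) and 23.9% of wild-type-only peaks (interval 20.2 to 28.1). Y78A-only peaks at gene ends met H3K9ac in 83 of 90 cases. Their far counterparts met it in 45 of 151 cases (29.8%, interval 23.1 to 37.5), and met H3K9cr in 71.

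At the level of genes, a wild type peak overlapped the 1 kb window around an end of 5734 of 20037 protein-coding genes (28.6%), and a Y78A peak did so at 2934 (14.6%). Both proteins were at 2853 genes, 49.8% of the wild type genes, and 81 genes (0.404%) had Y78A alone. At 2834 of the 2853 genes a wild type and a Y78A peak overlapped each other. Among the 2881 wild-type-only genes, 34 had a wild type peak that met a Y78A peak just outside the window, KAT6B among them. Genes with 1 wild type gene-end peak had Y78A in 48.1% of cases (interval 46.7 to 49.4), and the 411 genes with 2 in 68.6% (interval 64.0 to 72.9). Ranked by −log10 p of the strongest wild type peak, the share of genes with Y78A went from 5.40% in the lowest of 10 groups of like size to 97.6% in the highest.

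The partners of ENL in elongation had wild type peaks at 18 of 27 genes, 10 of them with Y78A. Values below are fragments at the strongest gene-end peak of each list, which can lie at different ends of a gene. A gene counts as wild type only, or without Y78A, when no Y78A peak meets its gene-end window. The other 9, among them MLLT1 itself and its paralogue MLLT3, had no gene-end peak in either list. ELL, an elongation factor, had 74 wild type and 51 Y78A fragments, ELL2 45 and 22, and the scaffold genes AFF1 26 and 18 and AFF4 18 and 21. The P-TEFb cyclins CCNT1 and CCNT2 had 24 and 13, and 45 and 33. Of the 7SK particle, which holds P-TEFb inactive, HEXIM1 had 75 and 56, MEPCE 61 and 41, and LARP7 29 in wild type alone. The 3 little elongation complex genes were wild type only, with 32 fragments at ICE1, 16 at ICE2 and 14 at ZC3H8. In the DOT1L complex, MLLT10 had 53 and 35. DOT1L, the H3K79 methyltransferase, with 52 and a −log10 p of 11.3, and MLLT6, with 79, had no Y78A peak in the window. The MLLT6 peak had a −log10 p of 28.2, above the 27.1 of ANKRD1, yet was not among the leading wild-type-only peaks. It may thus meet a Y78A peak outside the window, as at KAT6B. KMT2A had 34 and 21, and MEN1 and EAF2 had 21 and 9 in wild type alone. The peaks of this group were strong, with a median of 33 fragments against 24 over all wild type genes, and wild type genes of the same strength would give 12.1 genes with both in place of 10. That number, given for each group below, sums over a group's genes the share of all wild type genes in the same group of −log10 p that had Y78A.

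Among PAF1, SPT and pausing factors, 11 of 20 genes had wild type ENL and 4 had both. SUPT4H1, a subunit of the DSIF elongation factor, had 43 and 20 fragments, LEO1 of the PAF1 complex 22 and 15, and SETD2, the H3K36 methyltransferase, 24 and 18. PAF1 with 24, CDC73 with 18 and CTR9 with 16, all of the PAF1 complex, and SUPT5H with 18 were wild type only. Of 28 acyl-lysine enzyme and reader genes, 17 had wild type ENL and 8 had both. EP300, an acetyltransferase, had 51 and 27, BRD2, a bromodomain reader, 50 and 23, and SIRT5, a deacylase, 28 and 23. HDAC1 with 23, SIRT1 with 21 and YEATS4, another YEATS domain reader, with 24 had no Y78A peak. KAT6B, with 89, counted as wild type only because its Y78A peak lay outside the window. ACSS2, an acetyl-CoA synthetase, counted as Y78A only with 32 fragments, although that Y78A peak met a wild type peak outside the window. At equal strength, wild type genes would give 5.004 and 10.3 genes with both in these groups.

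Hepatocyte genes were mixed. Of 26 liver transcription factor genes, 16 had wild type ENL and 10 had both, where wild type genes of the same strength would give 7.45. NR0B2, the bile acid responsive repressor SHP, had 119 wild type and 76 Y78A fragments, XBP1 77 and 37, TBX3 65 and 40, and CEBPB 52 and 29. The pioneer factor genes FOXA1 with 30 and FOXA2 with 33, HNF4A with 27 and CEBPA with 26 had wild type alone, while FOXA3 had 27 and 24. Of 30 plasma protein genes 9 had wild type ENL and 6 had both, including APOA2 with 66 and 38, APOB with 65 and 42, and complement C3 with 62 and 36. F5, with 33, and RBP4, the retinol carrier, with 18, had none in Y78A. Of 20 ketone body genes 7 carried wild type ENL, and 2 had both: HADHA and HADHB, each with 40 and 26 fragments. CPT1A, the gatekeeper of mitochondrial fatty acid entry, had 32, and the transporter genes SLC16A1, with 22, and SLC16A6, with 25, also lacked Y78A. The −log10 p was 8.63 at CPT1A, 11.3 at SLC16A1 and 10.6 at SLC16A6. Same-strength genes would give 5.56 plasma protein and 3.88 ketone body genes with both. Among 29 genes of other tissues 1 had a peak, the odorant receptor gene OR2T1, with 14 fragments in each library.

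Stress and growth response genes carried high peaks. Of 24 genes of the integrated stress and unfolded protein responses, 20 had wild type ENL and 15 had both, with 13.9 for genes of that strength. DDIT3, the stress factor CHOP, had 78 and 39 fragments, TRIB3 76 and 52, DDIT4 58 and 32, and ATF4, which drives the response, 45 and 30. PPP1R15A, the phosphatase subunit that ends it, with 47, and SESN2, with 38, were wild type only. Wild type ENL was at 18 of 24 immediate early genes and both proteins at 8, where genes of that strength would give 10.5. KLF6 had 112 and 44, JUN 100 and 49, JUND 97 and 54, and EGR1 49 and 30. DUSP1, a MAP kinase phosphatase, with 80, FOS with 51, FOSL1 with 46, FOSB with 41 and JUNB with 38 had no Y78A peak. Their −log10 p, in the same order, was 15.7, 10.9, 15.4, 11.5 and 9.57, against a median of 12.3 over all wild type genes. The DUSP1 peak stood over a background of 27.8 fragments, a fold of 2.82.

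The remaining groups were mostly of housekeeping genes. Over all protein-coding genes, 28.6% had wild type ENL, and 49.8% of those had both. The interval of each group's share with both included 49.8%, except that of the splicing factors. Wild type ENL was at 29 of 40 splicing factor genes of the SR and hnRNP families, and both proteins at 24 (82.8%, interval 65.5 to 92.4), and genes of the same strength would give 24.3. Their median was 47 fragments, with HNRNPC at 96 and 72, SRSF2 at 83 and 47, and HNRNPU at 67 and 23. DNA replication genes had 20 of 38 and both at 12, with ORC6 at 46 and 28, PCNA at 42 and 28 and MCM7 at 42 and 22. RAB GTPase genes had 33 of 63 and both at 17, led by RAB10 with 72 and 39. RAB34, with 83, had no Y78A peak in the window, and its wild type peak met none of the marks. That peak had a −log10 p of 29.9, above the 29.2 at DONSON and SON, yet was not among the leading wild-type-only peaks. It may thus meet a Y78A peak outside the window. Aminoacyl-tRNA synthetase genes had 21 of 34 and both at 10, including CARS2 with 80 and 51. Proteasome genes had 20 of 39 and both at 9, with PSMB1 at 37 and 20 and PSMD1 at 35 in wild type alone. DEAD and DEAH box helicase genes had 30 of 54 and both at 13, with DDX5 at 88 and 51. Mitochondrial ribosomal protein genes had 33 of 77 and both at 12 (36.4%, interval 22.2 to 53.4), with a median of 19 fragments, MRPS18B at 52 and 26, and MRPL34 at 37 in wild type alone. Zinc finger genes of chromosome 19 had 66 of 246 and both at 25 (37.9%, interval 27.1 to 49.9), also with a median of 19. For these groups, in the order given after the splicing factors, genes of the same strength would give 11.04, 16.7, 9.47, 9.81, 14.4, 14.02 and 24.9 with both.

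**Figure D5:**
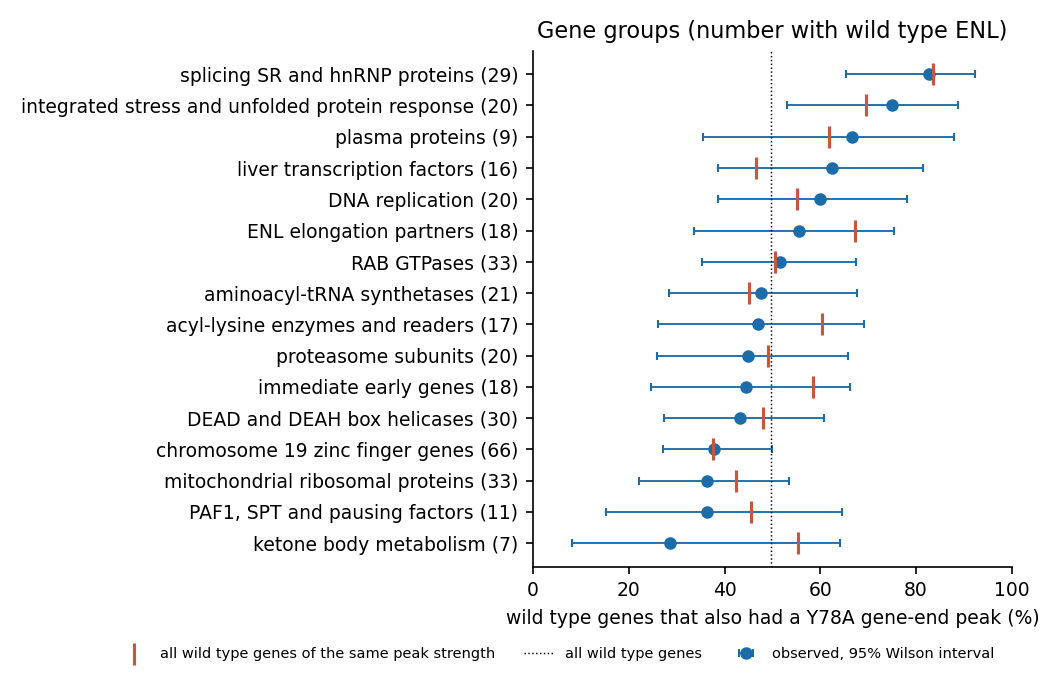
Percent of wild type ENL genes that also had a Y78A gene-end peak (horizontal axis), by gene group with the number of wild type genes in brackets, with 95% Wilson intervals. Vertical ticks give the share among all wild type genes with peaks of the same strength, and the dotted line is the share over all wild type genes, 49.8%, inside the interval of 14 of the 16 groups shown. The tick lies inside the interval of each group.

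Promoter letters were compared for 2044 promoters that met both a wild type and a Y78A peak, 2165 that met wild type alone, 67 that met Y78A alone and 11567 that met no ENL peak. Base composition was alike in the first pair: the median GC content was 66.3% in each, against 62.7% over all 15843 promoters, and the observed over expected CpG ratio was 0.87 and 0.88, against 0.76. The CCAAT box, whose letters CCAAT are known as the NF-Y site, was in 52.0% of promoters with both (interval 49.8 to 54.2) and 39.7% of those with wild type alone (interval 37.7 to 41.8). It was in 36.4% of all promoters. The difference was present in each of 4 promoter groups ranked by the −log10 p of the wild type peak, with 45.7% against 39.6%, 53.6% against 40.3%, 49.1% against 39.95% and 54.3% against 35.3%. The intervals overlapped in the weakest group only.

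The ETS core CCGGAAG had the opposite order, in 20.6% of promoters with both (interval 18.9 to 22.5) and 25.03% of those with wild type alone (interval 23.3 to 26.9), against 14.2% of all. Within the third group of strength the order was reversed, 25.5% against 21.8%, and the intervals overlapped in all 4 groups. The SP motif GGGCGG, which can overlap itself in runs, was in 79.6% and 77.0%, against 58.5% of all. The longer NRF1 and YY1 motifs, each searched as 1 exact word, were in 3.03% and 3.37% and in 3.42% and 3.695% of the promoters, and the CRE letters TGACGTCA in 3.38% and 4.16%. The E-box CACGTG was in 9.59% and 11.5%, and the TATA box TATAAA in 4.79% and 4.34%, against 9.63% of all promoters. A match is a description of letters in this window and says nothing of a bound factor.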

How the data were processed

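The 2 libraries are CUT&Tag of Flag-ENL wild type and Y78A in HepG2 cells, grouped by sample title. The submitters' processing notes name FastQC, Bowtie2, MACS2, deepTools and hg38, without versions or settings. The sources used here do not give the control, duplicate handling or mapping filters. The authors deposited 1 narrowPeak list a library: the deposited fold is a ratio to the caller's local background. The p-value and q-value of a peak were deposited on a −log10 scale. The deposited score, a rounded multiple of −log10 q, was not used. Summit fragments and background were solved from fold and p (relative tolerance 3e-05), taking the fold as the count plus 1 over the background plus 1 and p as a Poisson tail. The depth per sample is known only through them.

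Overlap needed at least 1 bp. Shares have Wilson intervals, differences Newcombe intervals, medians order-statistic intervals and fragment ratios exact binomial intervals, at 95%. Gene ends came from 20037 RefSeq protein-coding genes and start sites from the RefSeq promoter table, which matched 15843 of them. Of the entries of 17 gene lists, 819 matched and 1 did not. Named peaks were the strongest by −log10 p of each class at gene ends (anywhere for Y78A only), the extreme fragment ratios, and up to 3 members of a list; further list members were picked after their values were seen. Members, lists and rules were chosen with earlier results of these data known. In a test on simulated data, 100% of planted overlaps were found and the solver returned 100% of 2000 fragment counts. Python 3.11.15, scipy 1.17.1 and bedtools 2.31.1 were used. Alternatives were other overlaps, thresholds, list lengths, windows and strength groups.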

Additional observations from a re-analysis of the deposited data

How the results depend on the processing

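Of 49 alternatives over 8 results, 17 stayed inside the interval of the value reported, 31 moved out of it and 1 changed sign. With 50% of both peaks required, wild type sharing was 34.9% and Y78A sharing 73.3%, and with 50% of the shorter peak the latter was 89.9%. Within 1 kb they were 45.6% and 92.5%. With both lists cut to the Y78A length they were 72.0% and 73.2%, and gene sharing 75.1%. With −log10 q of at least 5, gene sharing was 46.7%. The gene-end difference was 1.44 points with 50% of both peaks and 3.904 with −log10 q of at least 5. By strength group it was 1.21, 2.60 and 1.67, and it reversed to -2.87 in the weakest. The H3K9bhb difference was 37.8 points with 50% of both peaks, 35.5 with −log10 q of at least 5, 26.7 at equal length, and 26.97, 25.02, 24.0 and 19.1 by strength group. With H3K9ac it was 17.7 and with H3K9cr 22.9. The width ratio was 0.80 with 50% of both peaks and 0.77 with −log10 q of at least 5. Summits within 150 bp were 86.5% and 86.2% under the same settings, and within 50 and 300 bp 49.3% and 95.7%. The gene-end over far fragment ratio, a result chosen after seeing the data, was 1.41. It was 1.45 for wild type −log10 q of at least 10 and 1.48 for sites beyond 300 kb, and stayed within its interval without chromosome Y. No paired analysis was possible because each group has 1 library. No replicate could be left out. The smallest summit held 8 fragments in each list, and the part of depth at the weak end was not tested.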

Other observations

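Short RNA genes carried ENL peaks too. Within 500 bp of a tRNA gene there were 47 wild type summits, 15 of them shared (31.9%, interval 20.4 to 46.2) with a median of 25 fragments. Of 443 tRNA genes, 54 had a wild type summit and 13 a Y78A summit, and none of the 14 Y78A summits there was Y78A only. Near snRNA genes, which encode the RNA parts of the spliceosome and related particles, 24 of 42 wild type summits were shared (57.1%, interval 42.2 to 70.9) with a median of 30.5 fragments. Only 7 of those 42 were at an end of a protein-coding gene. Both intervals include the share over all wild type peaks, 42.9%.

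Sharing also differed between chromosomes. It ranged from 32.6% of wild type peaks on chromosome 15 (interval 27.5 to 38.3) and 34.5% on X to 51.7% on chromosome 21 (interval 44.9 to 58.5) and 70.7% of 99 peaks on Y (interval 61.1 to 78.8). The median wild type summit held 19 fragments on 15 and on X, 27 on 21 and 37 on Y. The summit fragments of the wild type list thus moved with sharing in these 4 chromosomes, and their part in it was not tested. Y78A-only peaks made up from 5.08% of the Y78A peaks of chromosome 21 to 13.4% of those of Y.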
